A study of Mus musculus with 36 samples.

Results

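The 6 cerebellum arrays of the lh line, 3 from lh-/- mice and 3 from lh+/+ mice, were compared across all probe sets outside the array's own controls. They are 6 of the 36 arrays of a study of whole cerebellum and forebrain RNA in 3 mouse lines (labelled lh, stg and tg), with a -/- and a +/+ group of 3 arrays for each line and tissue. The symbol lh is read here as lethargic, the inherited mutant of Cacnb4, and stg and tg as stargazer (Cacng2) and tottering (Cacna1a). The labels do not spell out these names, nor the strain, age or any allele beyond -/- and +/+, and they call the +/+ mice mutant mice as well. All groups were sacrificed mice with no other treatment named. An inherited change of this kind is carried by every cell of the body from conception, so a difference in the cerebellum need not start there. The labels do not say that the 3 arrays of a group come from separate animals. Sex markers, given below, place more than 1 animal in each lh cerebellum group. In the main test the p-values measure a spread between arrays that is pooled over the 18 cerebellum arrays of the 3 lines. That spread may in part be technical.

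Voltage-gated calcium channels consist of a pore subunit with auxiliary beta and alpha2delta subunits. The beta subunit binds the pore on its inner side, helps to bring it to the cell surface and tunes its opening. Cacnb4 encodes the beta4 subunit, which in the cerebellum is found in Purkinje cells and granule cells and pairs mainly with Cacna1a, the pore-forming subunit of P/Q-type channels, which drive transmitter release. Mice without working beta4 have ataxia and absence seizures, as tottering and stargazer mice do. Which transcripts differ in the cerebellum of these mice is the question the comparison addresses.

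The tissue matched its label. The Purkinje cell gene Pcp2 read 7000.2 to 9191 on the 6 lh cerebellum arrays and 12.7 to 71.4 on the 6 lh forebrain arrays, and the granule cell receptor subunit Gabra6 read 5766 to 8572 against 10.5 to 56.2. Of the 6 arrays lh-/- replicate 1 correlated least with the other cerebellum arrays, at a mean of 0.941 across probe sets, and the pituitary hormone Prl stood at 297 on lh+/+ replicate 3. By Xist and Eif2s3y, an RNA of the inactive X and a Y-linked gene, replicate 3 of both genotypes read as female and replicates 1 and 2 as male. Sex was thus balanced between the lh genotypes, but it differed between the lines. In stg cerebellum replicates 1 and 2 of both genotypes read as female and replicate 3 as male, and in tg cerebellum every array read as male. The 3' to 5' differences of the Gapdh and Actb controls, a sign of RNA integrity, gave exact two-sided permutation p-values of 0.8 and 0.9, where 0.1 is the smallest that 3 arrays against 3 allow.

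Cacnb4 itself was lower in lh-/- cerebellum. The probe set that passed read 438, 387 and 388 on the lh-/- arrays and 750.2, 613 and 835 on the lh+/+ arrays. The groups did not overlap, and the change was -0.84 on the log2 scale (SE 0.13, limma adjusted p = 0.00763), or 1.80-fold lower. All log2 changes here are lh-/- minus lh+/+ on the scale of log2 of the signal plus 2.98, and a gene is said to have risen or fallen where limma's adjusted p was under 0.05. The other Cacnb4 probe sets, at -0.61 (adjusted p = 0.0814) and -0.62 (adjusted p = 0.113), separated the groups as well but did not pass. They did pass with a block for line and run of records (adjusted p = 0.0032 and 0.0134), and the former also with array weights (adjusted p = 0.0489). The runs are a split of the records by their order, not a batch named in the labels. In lh forebrain the same probe sets were at -1.24, -1.08 and -1.27, and all 3 passed. The difference between tissues was 0.40 (SE 0.18) for the first of them and did not pass (adjusted p = 0.991). The call in cerebellum did not pass with the 6 lh cerebellum arrays fitted alone (-0.84, adjusted p = 0.0811), or without both lh-/- replicate 1 and lh+/+ replicate 3 (-0.80, adjusted p = 0.0655).

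**Figure D1:**
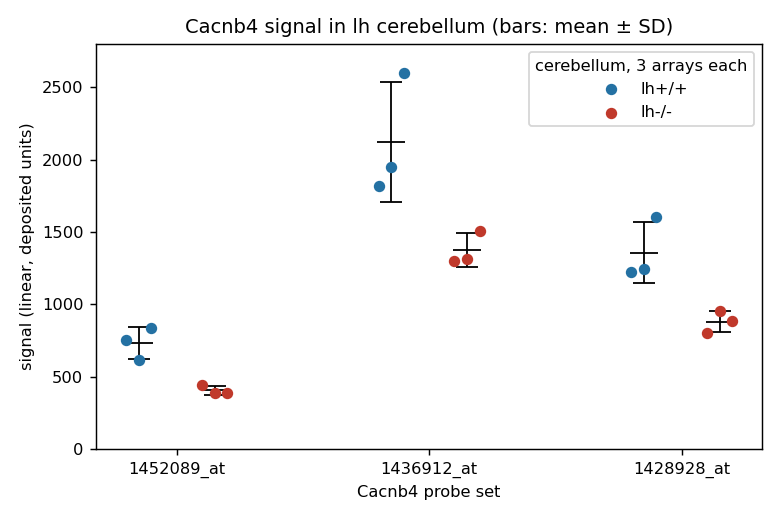
Signal of the 3 Cacnb4 probe sets on each lh cerebellum array, on a linear axis from 0; points are arrays, black bars are the mean and SD of 3. The lh-/- points lie below all lh+/+ points in each probe set, and the leftmost one passed the test.

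Of 27022 probe sets tested, 42 passed (0.155%), 15 higher in lh-/- (0.0555%) and 27 lower (0.0999%). They stand for 33 named genes, 14 that rose and 19 that fell, with 1 higher and 4 lower probe sets that have no single symbol. In all 42 the groups did not overlap, which was also true of 3424 probe sets (12.7%) in the whole table. Of the 15 called probe sets with a change of 1 log2 unit or more, 11 were higher and 4 lower. The smallest called change was 0.57 among the rises and 0.42 among the falls. A probe set with a larger SE needs a larger change to pass. Sizes among called probe sets therefore do not compare the directions over all probe sets. The count ran from 16 to 36 when 1 of the 6 arrays was left out, with 16 both without lh-/- replicate 1 and without lh-/- replicate 3, 26 without lh+/+ replicate 3 and 27 without lh+/+ replicate 2. It was 6 with the 6 lh cerebellum arrays fitted alone, and 137 with a block for line and run of records. In lh cerebellum that block sets replicate 3 apart, which read as female in both genotypes, so run and sex cannot be told apart there.

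**Figure D2:**
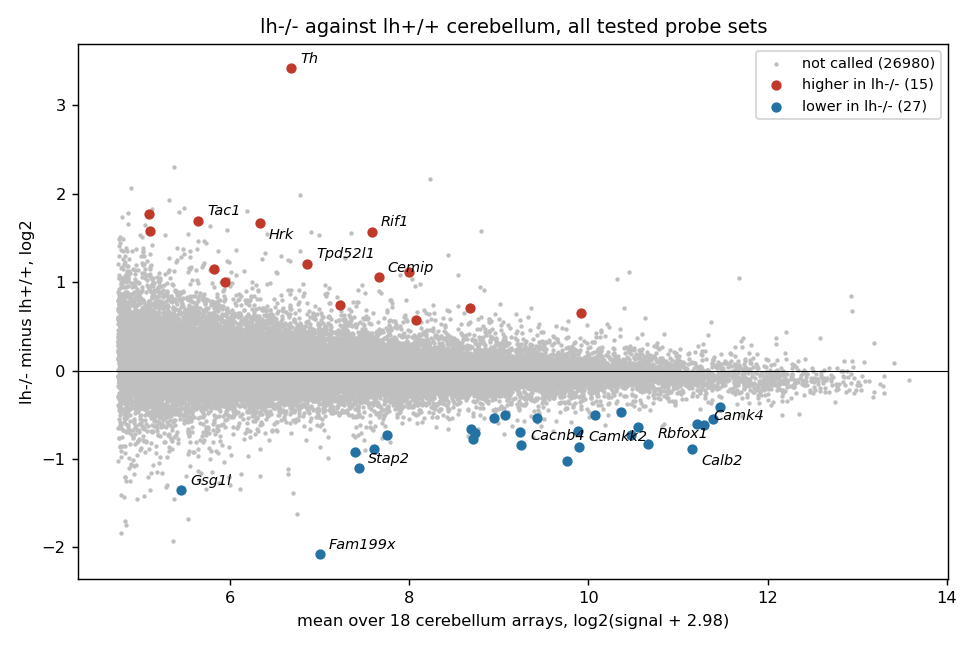
Log2 change (lh-/- minus lh+/+) against mean log2 signal over 18 cerebellum arrays for each tested probe set; red points passed and were higher (15), blue points passed and were lower (27). Th stands above all other points, and the called falls lie mostly at the brighter end of the axis.

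Th, tyrosine hydroxylase, the rate-limiting enzyme of catecholamine synthesis, had the largest change of the whole comparison. It read 562, 568 and 475 on the lh-/- arrays and 49.1, 57.2 and 37.2 on the lh+/+ arrays. Every lh-/- array was far above every lh+/+ array. The change was 3.42 (SE 0.20, limma adjusted p = 2.10e-08), or 10.7-fold with the constant added, and it passed without any 1 of the arrays and in all 12 alternatives. In lh forebrain Th was 163 ± 19.7 against 182 ± 18.6 (SD, n = 3), a change of -0.15, and the effect differed between the tissues by 3.57 (SE 0.27, adjusted p = 8.91e-10).

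Of the 10 measured genes of catecholamine synthesis and transport, Th was the 1 that passed. In that list 9 of 10 genes lay above 0, as did 51.4% of all 12201 genes by their brightest probe set, and the median was 0.21 against 0.02 over all probe sets. Pts, an enzyme of the cofactor that Th needs, was at 0.20 (adjusted p = 0.748), the noradrenaline transporter Slc6a2 at 0.66 (adjusted p = 0.760), and the monoamine oxidase Maob at 0.30 (adjusted p = 0.777). Pnmt, which makes adrenaline, read from 16.9 to 108 on the lh-/- arrays and from 7.20 to 66.4 on the lh+/+ arrays, a change of 1.23 with overlap (SE 0.76, adjusted p = 0.775).

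Tac1, which encodes the substance P precursor, read 88.5, 178 and 132 on the lh-/- arrays and 38.7, 41.5 and 32.6 on the lh+/+ arrays. The lh-/- arrays differed more among themselves than the controls did, yet none reached the control range. The change was 1.69 (SE 0.28, limma adjusted p = 0.0115). In lh forebrain it was -0.08, and the tissues differed by 1.78 (SE 0.28, adjusted p = 0.00790). Of the 17 measured neuropeptide and secreted factor genes Tac1 alone passed. The secretory granule proteins Scg2 (0.46, adjusted p = 0.158) and Vgf (0.86, adjusted p = 0.359) and the prohormone convertase Pcsk1 (0.71, adjusted p = 0.416) were higher on all 3 lh-/- arrays without passing, and the granin Chgb was at -0.34 with overlap (adjusted p = 0.382). The list's median was 0.10.

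Hrk, an activator of apoptosis of the BH3-only class, read 158, 146 and 123 on the lh-/- arrays and 42.4, 66.9 and 26.5 on the lh+/+ arrays. The groups were clearly apart although the controls varied widely. The change was 1.67 (SE 0.26, limma adjusted p = 0.00855), and the dimmer probe set of Hrk was at 0.70 and did not pass (adjusted p = 0.615). Hrk was the 1 riser among 17 measured stress and apoptosis genes, whose median was 0.09. In that list the quinone reductase Nqo1 (0.58, adjusted p = 0.215) and the BH3-only gene Bcl2l11 (0.57, adjusted p = 0.221) were higher on all 3 lh-/- arrays without passing, and Bbc3 was at 0.33 (adjusted p = 0.732).

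The promoters of Th, Tac1 and Hrk are shown because these 3 genes have the largest named rises and rose again in the tg line (given further on). They were searched for TGACGTCA, the letters of the cyclic AMP response element, to which the factor CREB binds, and for its shorter form TGACG, on both strands (CGTCA on the other). The sequences are the RefSeq windows of GRCm38.p6 from 250 bases before to 50 bases after the annotated start, 5′ to 3′ on the gene's strand, with TGACG and CGTCA in capitals. They lie at chr7:142899946-142900245 on the minus strand (Th), chr6:7554811-7555110 on the plus strand (Tac1) and chr5:118169514-118169813 on the plus strand (Hrk).
Th: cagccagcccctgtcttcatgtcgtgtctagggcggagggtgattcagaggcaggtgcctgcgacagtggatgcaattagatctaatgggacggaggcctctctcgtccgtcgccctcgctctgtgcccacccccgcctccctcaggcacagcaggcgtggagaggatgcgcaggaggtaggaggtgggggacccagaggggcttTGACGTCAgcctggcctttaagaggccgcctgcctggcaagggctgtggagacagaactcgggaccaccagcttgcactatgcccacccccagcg
Tac1: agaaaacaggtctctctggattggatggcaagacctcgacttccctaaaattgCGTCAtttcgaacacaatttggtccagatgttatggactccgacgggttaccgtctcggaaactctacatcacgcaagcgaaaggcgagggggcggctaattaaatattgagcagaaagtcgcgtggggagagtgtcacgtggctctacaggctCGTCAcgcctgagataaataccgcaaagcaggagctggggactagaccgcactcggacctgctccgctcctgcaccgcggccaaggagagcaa
Hrk: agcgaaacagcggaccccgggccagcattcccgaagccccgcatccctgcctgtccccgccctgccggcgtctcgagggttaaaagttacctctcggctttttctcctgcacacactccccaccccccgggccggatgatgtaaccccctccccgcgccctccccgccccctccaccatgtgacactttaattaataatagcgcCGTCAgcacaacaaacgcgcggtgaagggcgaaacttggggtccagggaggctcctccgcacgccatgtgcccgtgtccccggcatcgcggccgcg
The Th window holds the full TGACGTCA, in which the shorter forms overlap, beginning 45 bases before the start. The shorter form begins 43 and 197 bases before the start in Tac1 and 46 bases before it in Hrk, each on the opposite strand. Of the 14 genes that rose, 9 had a window in the table, and 4 of these 9 held the shorter form (Th, Hrk, Tac1 and Ptprn). Of the 19 genes that fell, 14 had a window and 2 held it (Clstn2, with the full form, and Ets2). Counted by gene in the same way, it is present for 23.0% of all 27025 genes with a window, and the full form for 2.03%. By window these shares are 20.8% and 1.79% of 32851. These matches describe letters in a window, with no test and no measurement of binding.

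The other rises covered several functions. Tpd52l1, a protein of vesicle trafficking, read 159, 173 and 210.4 on the lh-/- arrays and 83.7, 70.8 and 74.0 on the lh+/+ arrays, a change of 1.21 (SE 0.17, limma adjusted p = 0.00347). Cemip, which takes part in breaking down hyaluronan, read 295, 315 and 307 against 158, 127 and 153, a change of 1.06 (SE 0.12, limma adjusted p = 0.000373). The 3 lh-/- arrays of Cemip lay close together and above all controls, and its dimmer probe set was at 0.18 without passing. Fam117a rose by 1.11 and Tmem100, a membrane protein of blood vessels and sensory neurons, by 1.15, the latter from 32.7 ± 8.86 to 75.2 ± 11.1 (SD, n = 3). Tmem100 was at -0.52 in lh forebrain, and the tissues differed by 1.68 (SE 0.29, adjusted p = 0.0258).

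Plxdc2, a plexin-domain membrane protein, rose from 34.4 ± 6.16 to 71.3 ± 3.98 (SD, n = 3). Antxr1, a receptor that binds collagen, rose by 0.74, Neat1, the long noncoding RNA of nuclear paraspeckles, by 0.70, and the imprinted zinc finger gene Plagl1 by 0.65. Ptprn, a phosphatase-like protein of dense-core vesicles, rose by 0.57, from 247 ± 15.1 to 369 ± 25.6 (SD, n = 3). These 5 had adjusted p-values from 0.0115 to 0.0496. The second Antxr1 probe set was at -0.01 and does not share the rise, while the other Plxdc2 probe sets were at 0.44 and 0.35 without passing.

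For some of these rises the lh+/+ arrays read low beside the +/+ cerebellum of the other lines, a comparison made after the values were seen. Plxdc2 stood at 34.4 in lh+/+ and at 57.9 and 58.9 in stg+/+ and tg+/+. Neat1 stood at 265 in lh+/+, 386 in stg+/+, 419 in tg+/+ and 434 in lh-/-, and Plagl1 at 669, 975, 967 and 1054. Tmem100 stood at 32.7 in lh+/+, 47.2 in stg+/+ and 57.5 in tg+/+. For these 4 genes, Rif1, Mrpl3 and 1 unnamed probe set, 7 of the 15 that were higher, the lh+/+ mean lay farther than the lh-/- mean from the mean of the other +/+ groups. The lh-/- mean still lay outside the range of the 3 +/+ means for 13 of the 15. For Antxr1 the lh+/+ mean was also the lowest of the 3 (114.5, against 142 and 148.5), with lh-/- farther off at 194. The same was true of Cemip (146, against 213 and 208), with lh-/- at 305. Of the 27 that were lower, lh-/- lay outside that range for 27 and lh+/+ was the farther for 0. The lh+/+ mean was the lowest of the 3 +/+ means for 11 of the 15 and the highest for 16 of the 27. That range includes the lh+/+ mean used in the calls, so lying outside it is in part fixed by the call. What sets the lh+/+ level of these genes was not tested.

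For Rif1 and Mrpl3 the probe sets disagreed. Rif1, a regulator of replication timing and DNA repair, read 326, 234 and 389 against 108, 89.6 and 110.4 on 1 probe set, a change of 1.57 (SE 0.29, limma adjusted p = 0.0304), while its other 3 probe sets were at 0.27, -0.25 and -0.15. Mrpl3, a mitochondrial ribosomal protein, rose by 1.58 on a probe set near the floor (26.2 against 7.02), and 3 brighter probe sets were at 0.10, -0.05 and -0.13. The rise of either gene therefore rests on 1 probe set. On that probe set Mrpl3 stood at 40.02 to 54.4 in the stg and tg cerebellum groups of either genotype, so that the lh-/- level was below all 4 of them. Rif1 stood at 103 in lh+/+, 308 in stg+/+ and 191 in tg+/+, with 154 in stg-/-, 186 in tg-/- and 316 in lh-/-. Of the 24 called genes with more than 1 tested probe set, all other probe sets had the sign of the call in 19. The exceptions were Rif1, Mrpl3, Antxr1, Ank1 and Rbfox1.

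Rif1 lies close to the mutated gene. Cacnb4 spans chr2:52428320-52676609 and Rif1 chr2:52072815-52126769 (GRCm38.p6). Within 10 Mb of Cacnb4, besides Cacnb4 itself, 86 probe sets of 41 genes were tested and 1 passed, that of Rif1 (1.16%), against 35 of 22644 probe sets elsewhere (0.155%). Within 20 Mb it was 1 of 280 (0.357%). On all of chromosome 2 there were 3 called genes, Rif1, Plxdc2 and Camk1d, or 0.161% of 1865 probe sets against 0.158% on the other chromosomes. The Rif1 call was lost without any 1 of 5 arrays and held without lh-/- replicate 2.

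**Figure D3:**
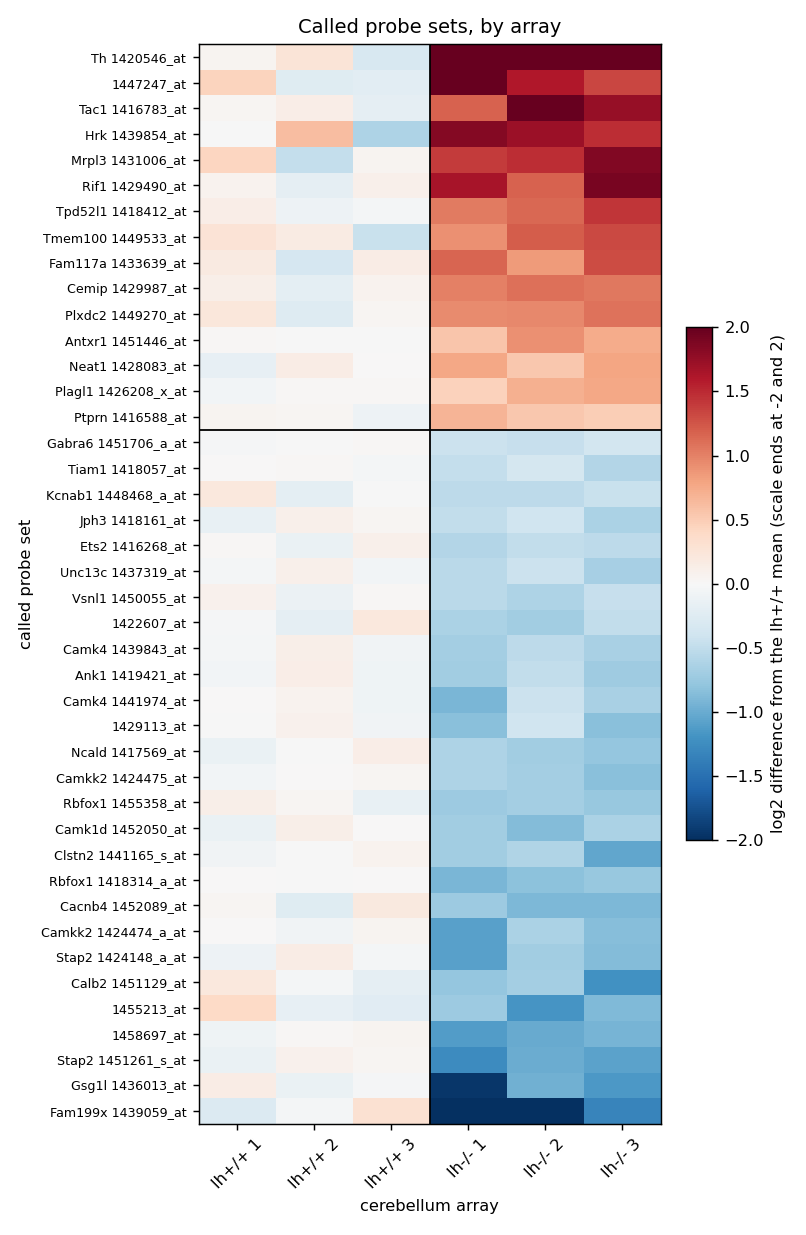
Each row is a called probe set and each column 1 of the 6 lh cerebellum arrays; colour is the log2 difference from the mean of the lh+/+ arrays, red higher and blue lower, with the scale ending at -2 and 2. The 15 higher probe sets are red and the 27 lower ones blue on all 3 lh-/- arrays.

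The falls included 3 kinases that act downstream of calcium and calmodulin. Camkk2, the kinase that activates the CaM kinases I and IV, read 566, 778 and 669 on the lh-/- arrays and 1222, 1150.0 and 1261 on the lh+/+ arrays of its stronger probe set. The lh-/- arrays were spread but all well below the controls, a change of -0.86 (SE 0.10, limma adjusted p = 0.000459). A second probe set fell by 0.71, and 2 more were at -0.95 and -0.75 without passing. Camk4, the CaM kinase IV of granule cell nuclei, read 2028, 2251 and 2063 against 3140, 3509 and 3090, a change of -0.62 (SE 0.07, limma adjusted p = 0.000459), with another probe set at -0.66 that passed. Camk1d, a CaM kinase I, read 177, 158 and 185 against 264, 315 and 293, a change of -0.73 (SE 0.12, limma adjusted p = 0.0115).

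Calb2 (calretinin), a calcium buffer of granule cells, read 1572, 1670.4 and 1165 on the lh-/- arrays and 3117, 2620.0 and 2385 on the lh+/+ arrays. The groups did not overlap, and the change was -0.89 (SE 0.14, limma adjusted p = 0.0112). Ncald (neurocalcin delta), a calcium sensor, fell from 828 ± 73.1 to 510 ± 26.5 (SD, n = 3; -0.69), and Vsnl1 (visinin-like protein), a sensor of the same family, from 3519 ± 263 to 2408 ± 131 (-0.55). Jph3, a junctophilin that ties the plasma membrane to the endoplasmic reticulum where calcium is released, fell by 0.51. Of the 26 measured genes of the list on calcium buffering, release and extrusion, 4 fell (Camkk2, Camk4, Calb2 and Ncald), none rose, 21 lay below 0 and the median was -0.17. Of all 12201 genes by their brightest probe set, 0.115% fell and 48.6% lay below 0. Camk1d, Vsnl1 and Jph3 are not in that list and were named because they passed. The exchanger Slc8a1 was at -0.30 with no overlap and did not pass (adjusted p = 0.348).

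Rbfox1, a neuronal splicing factor, read 1055, 1126 and 1174 on the lh-/- arrays of its strongest probe set and 1994, 1967 and 1998 on the lh+/+ arrays. The controls were nearly alike and the lh-/- arrays lay far below them, a change of -0.83 (SE 0.09, limma adjusted p = 0.000186). Another probe set fell by 0.73, 1 was at -0.66 without passing (adjusted p = 0.0656), and 1 near the floor was at 0.08. Stap2, a signalling adaptor, read 112, 135 and 128 against 248, 288 and 280.3 and changed by -1.11 (SE 0.12, limma adjusted p = 0.000186), with a second probe set at -0.88 that passed. With all 36 arrays in the fit the first of these did not pass (adjusted p = 0.602).

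The other falls are given next, by gene. Gsg1l, an auxiliary subunit of AMPA receptors, fell from 50.9 ± 5.33 to 18.9 ± 7.03 (SD, n = 3; -1.35, SE 0.26, limma adjusted p = 0.0430). Clstn2 (calsyntenin), a postsynaptic adhesion protein, fell by 0.78, and Unc13c, the Munc13 vesicle-priming factor typical of cerebellum, by 0.54. Ank1, an ankyrin, fell by 0.64, Ets2, a transcription factor, by 0.54, and Kcnab1, an auxiliary subunit of potassium channels, by 0.50. Tiam1, an exchange factor for Rac in granule cells, fell by 0.47. A smaller fall was that of Gabra6, the GABA receptor subunit specific to cerebellar granule cells, which read 2629, 2565 and 2755 against 3497, 3522 and 3603 (-0.42, SE 0.08, limma adjusted p = 0.0324). Its brighter probe set was at -0.36 and did not pass (adjusted p = 0.104).

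Fam199x, a gene of the X chromosome, had the largest fall. It read 24.6, 27.4 and 61.1 on the lh-/- arrays and 129, 153 and 194 on the lh+/+ arrays, a change of -2.08 (SE 0.25, limma adjusted p = 0.000459), and its other probe sets were at -1.20 and -0.44 without passing. In each genotype the highest array was replicate 3, read as female. In lh forebrain it was at -2.07 (adjusted p = 0.0796), and the tissues differed by -0.01 (SE 0.47, adjusted p = 0.999).

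Calls differed in how far they rested on single arrays. Of the 37 called probe sets with 1 symbol, 10 passed in all 6 fits that leave out 1 array, namely those of Th, Cemip, Tpd52l1, Fam199x and Cacnb4, both of Rbfox1, and the stronger ones of Stap2, Camkk2 and Camk4. Hrk was lost without lh-/- replicate 1 (adjusted p = 0.050), Clstn2 without lh-/- replicate 3 (adjusted p = 0.064), and Calb2 without lh-/- replicate 3 or lh+/+ replicate 1 (adjusted p up to 0.0769). Tac1 was lost without lh-/- replicate 2 or 3 or lh+/+ replicate 3 (up to 0.0769). Tiam1, Ank1, Unc13c, Fam117a and the weaker Camk4 probe set were lost without lh-/- replicate 1 or 3 or lh+/+ replicate 2, and the weaker Camkk2 probe set without lh-/- replicate 3 or lh+/+ replicate 2 or 3 (up to 0.124). Neat1 was kept without lh-/- replicate 2 or lh+/+ replicate 2, Camk1d without lh-/- replicate 3 or lh+/+ replicate 1, and Mrpl3 and the weaker Stap2 probe set without lh-/- replicate 2 or lh+/+ replicate 1 (lost otherwise, up to 0.14). Vsnl1, Ets2 and Kcnab1 passed only without lh+/+ replicate 2, Ncald, Tmem100 and Jph3 only without lh+/+ replicate 1, and Rif1 and Gsg1l only without lh-/- replicate 2 (up to 0.208). Gabra6, Ptprn, Antxr1, Plagl1 and Plxdc2 passed in 0 of the 6 (up to 0.215). The direction of each of the 37 was kept in every one of these fits.

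The calls were then read in the other lines, whose arrays share no control with lh. The lines do share a common estimate of the spread of each probe set, since they were fitted together. Calls in them are therefore not independent, and the shares over all tested probe sets do not allow for this. The lines also differ in the sex of their arrays, and its part in differences between lines was not tested. Of the 15 probe sets higher in lh-/-, 5 also rose in tg cerebellum, where 93 of all tested rose (0.344%). They were Th (4.15), Tac1 (2.40), Hrk (1.59), Tpd52l1 (1.01) and Fam117a (0.995). In stg cerebellum, where 142 of all tested rose (0.525%), the same genes were at 0.23, -0.01, -0.42, 0.37 and 0.02, with limma adjusted p from 0.440 to 0.997. The level of Th in tg-/- cerebellum was 591 ± 35.6 (SD, n = 3), with 48.5 ± 5.001 in stg-/- and 30.6 ± 0.671 to 47.8 ± 10.1 in the 3 +/+ groups, so lh-/- (535 ± 52.1) and tg-/- stood apart from the other 4 cerebellum groups.

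Tests of the differences bear on how far the lines differ. Between lh and stg the effects on Th (3.19, SE 0.28, limma adjusted p = 1.22e-05) and Hrk (2.09, SE 0.37, adjusted p = 0.0231) differed, and that on Tac1 did not pass (1.70, SE 0.39, adjusted p = 0.127). Between lh and tg none of the 3 passed, with differences of -0.73 (SE 0.28) for Th, -0.71 (SE 0.39) for Tac1 and 0.08 for Hrk and adjusted p-values of 0.896, 0.999 and 0.999. These do not show that the lines respond alike.

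Of the 27 probe sets lower in lh-/-, 14 also fell in stg cerebellum, where 210 of all tested fell (0.777%), and 2 fell in tg cerebellum (Stap2 and Gabra6), where 62 fell (0.229%). In stg they included Ncald (-1.57), Ets2 (-0.94), Vsnl1 (-0.85), Camk4 (-0.76), Stap2 (-0.74), Camk1d (-0.70), Clstn2 (-0.66), Gabra6 (-0.65), Rbfox1 (-0.46) and Tiam1 (-0.42). The fall of Ncald was smaller in lh than in stg, by 0.87 (SE 0.17, limma adjusted p = 0.0492). For Calb2, at 0.24 in stg and -0.42 in tg, the lh effect was lower than that of stg by 1.13 (SE 0.20, adjusted p = 0.0250). Camkk2 was at -0.17 in stg and -0.39 in tg, Kcnab1 at 0.03 and 0.00, Unc13c at -0.09 and -0.25 and Jph3 at -0.03 and -0.05, none passing there. The differences from lh did not pass for these 4 genes either.

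Cemip moved in opposite directions. It fell in stg cerebellum by 0.71 (limma adjusted p = 0.00360) and rose in lh, and the effects differed by 1.77 (SE 0.17, adjusted p = 3.70e-05). Its mean was 146 in lh+/+, against 213 in stg+/+ and 208 in tg+/+. The part of this lower control level in the difference was not tested. Ptprn (-0.37 in stg) and Rif1 (-0.87 in stg) also had effects higher in lh than in stg, by 0.94 (adjusted p = 0.0142) and 2.44 (adjusted p = 0.0166). The Rif1 value rests on 1 probe set, on which lh+/+ stood at 103 against 308 in stg+/+ and 191 in tg+/+. On its other probe sets the effects differed by 0.71, 0.54 and 0.29 without passing. In all, 15 of the 42 lh calls were called in stg cerebellum (35.7% of the lh calls, 4.26% of the 352 stg calls, which were 1.3% of all tested) and 7 in tg cerebellum (16.7%, and 4.52% of the 155 tg calls, which were 0.574%). The effects differed by test between lh and stg for 32 probe sets (0.118%) and between lh and tg for 11 (0.0407%).

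**Figure D4:**
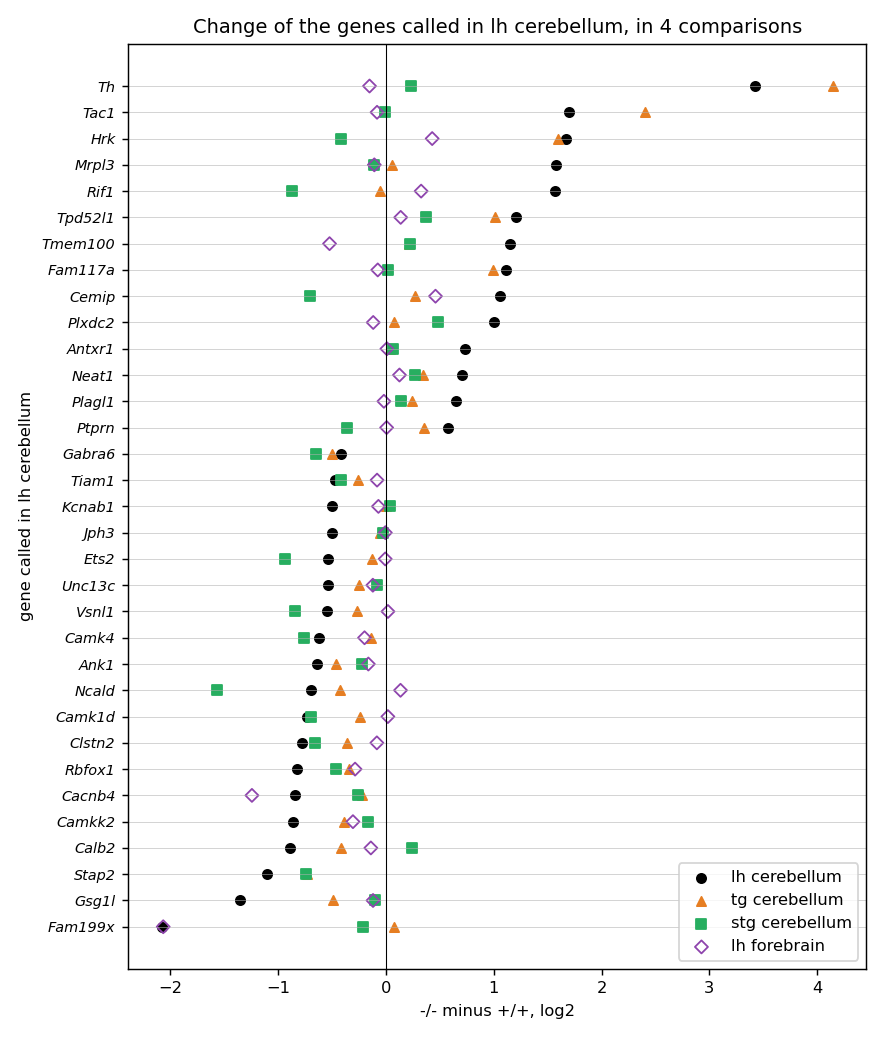
Log2 change (-/- minus +/+) of the 33 genes called in lh cerebellum, by the stronger probe set, in 4 comparisons; each marker is 1 comparison of 3 arrays with 3. The tg triangles follow the lh points for Th, Tac1, Hrk, Tpd52l1 and Fam117a, the stg squares lie near or beyond them for Ncald, Vsnl1, Camk4 and Ets2, and most forebrain diamonds lie near 0.

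Forebrain of the same line shared no call other than that of Cacnb4. Of 40 lh cerebellum calls tested in lh forebrain, 1 was called there, 27 had the same sign and 38 had a smaller change. A call missing there does not show that the effect is absent. Fam199x was at -2.08 in cerebellum and -2.07 in forebrain (limma adjusted p = 0.0796), and 1 unnamed probe set at -0.93 and -0.98 (adjusted p = 0.0697). Only 4 probe sets passed in lh forebrain (0.0148%), 3 of them of Cacnb4. The lh effect differed between the tissues for 3 probe sets (0.0111%), those of Th, Tac1 and Tmem100, each higher in cerebellum.

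No other measured calcium channel subunit passed. Of 4 listed beta subunits 3 were measured, of 10 pore subunits 6, and of 11 alpha2delta and gamma subunits 9. Cacnb3 had no probe set with 1 symbol and was not read. Among beta subunits Cacnb1 was at -0.50 (adjusted p = 0.737) and Cacnb2 at 0.05. The 6 measured pore subunits ran from -0.22 for the T-type Cacna1g to 0.28 for the L-type Cacna1d, with Cacna1a, the partner of beta4, at 0.00 (SE 0.30), Cacna1b at 0.08, Cacna1c at -0.15 and Cacna1e at 0.19. Cacna1a read 511, 571 and 269 against 381, 606 and 338, low on replicate 3 of both genotypes. Of the 9 alpha2delta and gamma subunits, Cacna2d1 was at -0.34, Cacna2d2 at -0.09, Cacna2d3 at -0.05 and Cacna2d4 at 0.85 (adjusted p = 0.680). The gamma subunits Cacng2, Cacng3, Cacng4, Cacng5 and Cacng7 were at -0.06, -0.07, 0.37, -0.17 and -0.06. The medians were 0.04 for the pores and -0.06 for the alpha2delta and gamma subunits, and 0 members of either list had an unadjusted limma p under 0.05.

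A literature list of cerebellar genes studied in such mutants had 20 measured members. By their brightest probe set Th rose and Calb2 fell, and by any probe set 2 members fell. That list and all others here were drawn up with earlier results of these data known, so it is no independent evidence. Npy was lower on all 3 lh-/- arrays, at 138, 177 and 147 against 261, 250.4 and 225 (-0.67), but did not pass (adjusted p = 0.555). Nos1, neuronal nitric oxide synthase, was at 0.37 (adjusted p = 0.348), Ryr3 at -0.35, Bdnf at -0.19, Pvalb at -0.22, Aldoc at -0.16, Calb1 at -0.12, Kcna1 at -0.15, Ntrk2 at 0.14, Ryr1 at -0.05, Gria2 at -0.03 and Gria4 at -0.25. The GABA receptor subunits Gabrd and Gabrb2 were at -0.23 and -0.18.

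Receptor, channel and release genes showed few calls. Of 26 glutamate receptor and scaffold genes none passed, with Homer2, a scaffold of metabotropic receptors, at 0.88 (260.1, 180.2 and 186 against 134, 106 and 95.0; adjusted p = 0.0923) and 5 genes at an unadjusted limma p under 0.05. None of 28 sodium, potassium and HCN channels passed (median -0.07, 6 at an unadjusted limma p under 0.05), with the fast potassium channel Kcnc1 at -0.52 (adjusted p = 0.150) and the sodium channel Scn2a at -0.40 (adjusted p = 0.169). In the release machinery 25 of 33 genes lay below 0 (median -0.12), as did 48.6% of all genes by their brightest probe set. There Unc13c fell by a probe set other than its brightest. Syt2, the fast calcium sensor of release, was at -0.45 (adjusted p = 0.0656) and Doc2b, another calcium-binding vesicle protein, at -0.44 (adjusted p = 0.0971). Of the 15 GABA receptor, synthesis and transport genes, 1 fell by any probe set (Gabra6).

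None of 24 activity-regulated genes passed, 1 had an unadjusted limma p under 0.05, and their median was -0.06. Egr1 was at -0.32 with overlap (adjusted p = 0.740), Nptx1 at -0.36 (adjusted p = 0.240) and Junb at 0.38 (adjusted p = 0.833). The 18 circadian clock genes had a median of 0.02, and the 17 glucocorticoid response genes 0.16, with none passing in either list and 0 and 2 genes at an unadjusted limma p under 0.05. Cdkn1a, a cell cycle inhibitor of the latter list, was at 0.77 (adjusted p = 0.168).

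Markers of cell types were read on each array, since in bulk tissue fewer cells of a type and less RNA per cell cannot be told apart. Of 19 granule cell markers 1 fell (Tiam1) by its brightest probe set, 15 lay below 0 and 10 had no overlap, with a median of -0.14. Among all 12201 genes by their brightest probe set, 48.6% lay below 0 and 1663 had no overlap. At an unadjusted limma p under 0.05 there were 8 of the 19, all lower. Their summed signal was 40700 to 42000 on the lh-/- arrays and 47950 to 50590 on the lh+/+ arrays. Gabra6 and Tiam1 are members of this list, so their own lower signals are part of that sum and of these counts. Camk4 and Calb2 are granule cell genes outside the list. The part of a lower granule cell signal in the falls of these genes was not tested. Chn2, a Rac regulator, was at -0.35 (adjusted p = 0.0656) and Cbln3 at -0.49 (adjusted p = 0.221). Of 17 Purkinje cell markers Kcnab1 fell, and the other 16 did not pass (median -0.10), with summed signals of 46820 to 53390 against 50500 to 56950, which overlap.

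Glial, vascular and meningeal lists lay above 0 without a call in any of them. At an unadjusted limma p under 0.05 there were 5 genes of the microglia list, 4 of the interferon list, 10 of the oligodendrocyte list, 7 of the astrocyte list, 2 of the endothelial list and 9 of the choroid plexus and meninges list, all higher. The same was true of 5.08% of all genes by their brightest probe set, with a further 3.84% lower at that p (7.62% of all probe sets in either direction). Across all genes by their brightest probe set, 51.4% lay above 0. All 14 microglia markers were above 0 (median 0.40), with summed signals of 2475 to 2649 against 1745 to 2019. C1qa, a complement subunit made by microglia, was at 0.53 (adjusted p = 0.145) and the protease Ctss at 0.64 (adjusted p = 0.252). Of 19 interferon and class I antigen presentation genes 17 were above 0 (median 0.43, sums of 2543 to 3614 against 1845 to 2676). There the class II chaperone Cd74 was at 0.85 (adjusted p = 0.298) and B2m at 0.52 (adjusted p = 0.383). Of 21 oligodendrocyte and myelin genes 18 were above 0 (median 0.28, sums of 22690 to 25450 against 21040 to 23580), with Ermn at 0.58 (adjusted p = 0.0971) and Mog at 0.56 (adjusted p = 0.112).

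Astrocyte and Bergmann glia markers summed to 32950 to 34450 on the lh-/- arrays and 31320 to 31710 on the lh+/+ arrays. The water channel Aqp4 was at 0.55 (adjusted p = 0.0957) and Gfap at 0.73 (386 to 413 against 211 to 252, adjusted p = 0.242). The list's median was 0.12, as was that of the 13 molecular layer and Golgi interneuron markers, and that of 16 endothelial and pericyte markers was 0.18.

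The choroid plexus and meninges list had the highest median of all lists. Of its 20 genes 19 lay above 0 and 13 had no overlap, with a median of 0.88 and none passing. Among all 12201 genes by their brightest probe set, 51.4% lay above 0 and 1663 had no overlap. Ogn, Col1a2 and Igf2, genes of meningeal fibroblasts, were at 0.97 (adjusted p = 0.109), 0.80 (adjusted p = 0.147) and 0.64 (adjusted p = 0.387). Summed signals were 19810 to 25110 against 16120 to 25760 and overlapped, and Ttr, the choroid plexus transthyretin and a large part of that sum, was at 0.08 (adjusted p = 0.979). Whether the meningeal signal has a part in the rises of Cemip, Plxdc2, Antxr1 or Tmem100 was not tested. In forebrain and pituitary genes (10 measured, median 0.08), in brainstem and deep nuclei genes (7, median 0.27) and in red blood cell genes (3, median -0.13) none passed, with 2, 3 and 0 genes at an unadjusted limma p under 0.05.

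**Figure D5:**
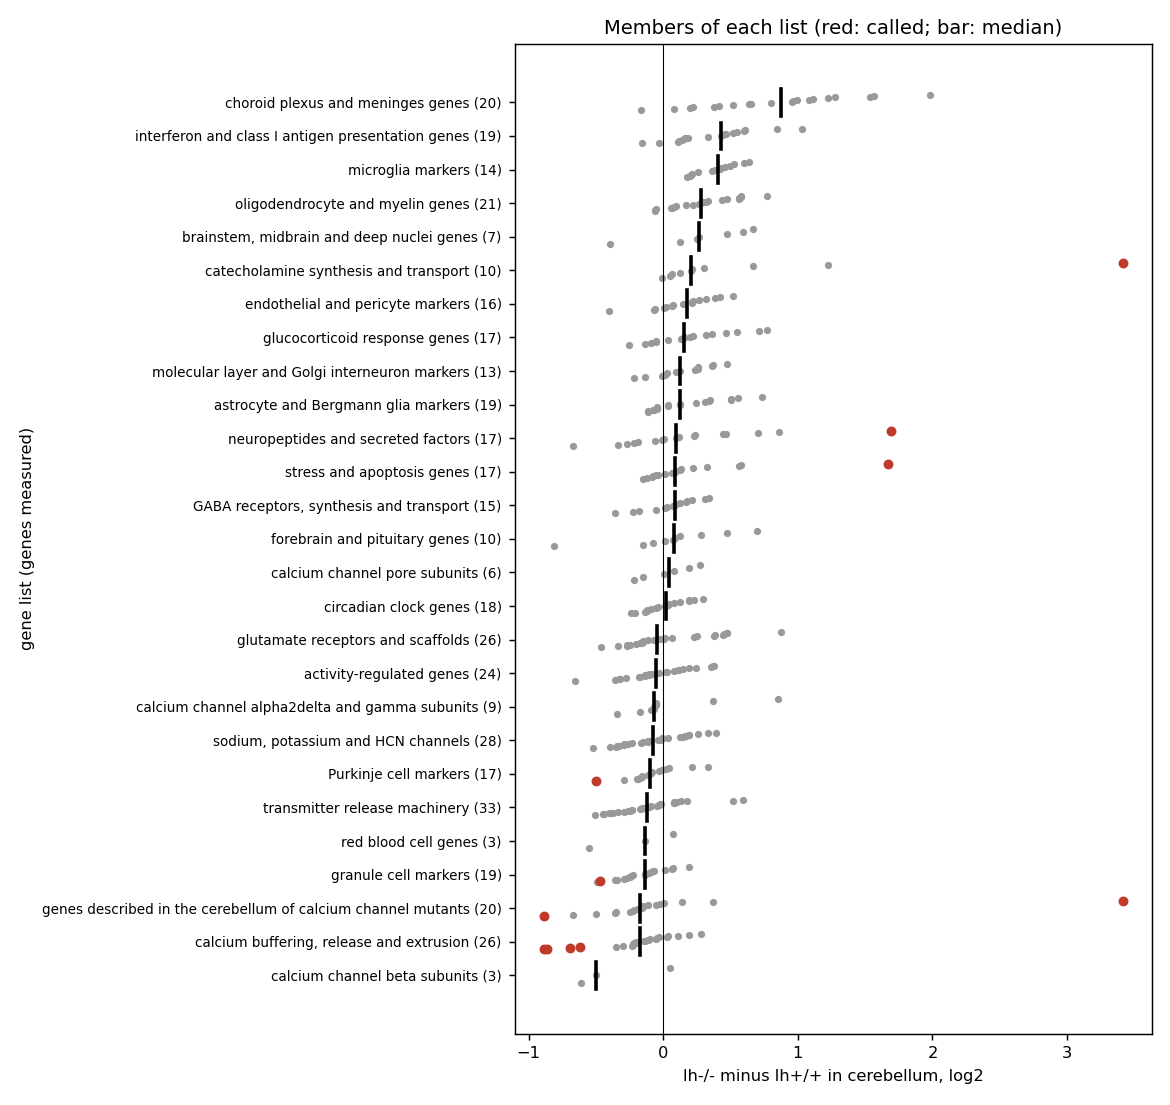
Log2 change of each measured gene of 27 lists in lh cerebellum, by its brightest probe set; grey points did not pass, red points passed and black bars are list medians. The choroid plexus and meninges list has the highest median (0.88), and Th lies far to the right in both lists that hold it.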

How the data were processed

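Total RNA was measured on 1-colour Affymetrix arrays. The deposited values are signal intensities on a linear scale. The steps from scan to signal, and the strain, age and preparation of the mice, are not given in the sources used here. Their mean after trimming 2% of probe sets at each end is 150 on every array, and they run from 0.0223 to 16805. Detection calls were not used, and the number of arrays limits the precision.

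Each intensity was turned into log2 of the signal plus 2.98, the 10th percentile of all values, which understates changes of dim probe sets. Array medians spanned 0.326, under the limit of 0.5, so no normalization was added. The 64 AFFX controls were left out, and 27022 of 45101 probe sets were tested, those whose mean exceeded the 40th percentile.

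The tests used limma (version 3.58.1, R 4.3.3) with group means fitted over the 18 cerebellum arrays (12 residual degrees of freedom), an intensity trend, two-sided moderated tests, and Benjamini-Hochberg adjustment over all tested probe sets, called under 0.05. Differences between effects were contrasts in this fit (lh against stg or tg) or in a fit over all 36 arrays (cerebellum against forebrain). Leave-one-out fits, other filters, constants, normalization, blocks and array sets were tried. Data of 27022 probe sets were simulated for the lh comparison from the fitted means and spreads, with independent noise and no sex, run or array structure. In them 18%, 74%, 98% and 98% of 50 changed probe sets were called at log2 changes of 0.5, 1, 2 and 3, with 9 false calls. Rates with such structure present were not tested.

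Symbols came from the platform's probe table (34958 probe sets with 1, 932 with several, 9211 with none), of which 34754 matched RefSeq genes of GRCm38.p6. Only probe sets with 1 symbol were named. In lists a gene is its brightest probe set. Named were all Cacnb4 probe sets, all called probe sets with 1 symbol, called and lowest-p members of each list (up to 4), all members of the calcium channel lists and of the list from calcium channel mutants, the 10 lowest p in each test of a difference, and called genes near Cacnb4. The comparison, the 28 lists and the motif were chosen with earlier results of these data known.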

Additional observations from a re-analysis of the deposited data

Results flagged for a closer look

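The lh effect in cerebellum differed by test from the effect in another group for the following genes, each given as a difference of log2 changes from limma with its adjusted p under 0.05. Against lh forebrain the differences were 3.57 for Th, 1.78 for Tac1 and 1.68 for Tmem100, all higher in cerebellum. That test called 1 to 7 probe sets when 1 lh cerebellum array was left out, with 1 without lh-/- replicate 2 and 7 without lh+/+ replicate 1.

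Against stg cerebellum 32 probe sets passed (0.118%), 21 with a higher effect in lh and 11 with a lower one. Among the lowest p-values were both Cacng2 probe sets, at 6.45 and 4.35, where Cacng2 is the gene altered in stargazer and the lh changes were -0.06 and -0.18. Th differed by 3.19 and Cemip by 1.77, both with a rise in lh. Adamts10, a matrix protease, differed by 1.15 (0.02 in lh, -1.13 in stg). Doc2b differed by -1.10 (-0.44 in lh, 0.66 in stg), Cdh7, a cadherin, by -1.49 (-0.13 and 1.37), Nos1 by -1.23 (0.37 and 1.60), Sox4, a transcription factor, by -1.17 (0.18 and 1.35) and Mapk13, a p38 kinase, by -4.005 (0.60 and 4.61). For the last 5 genes and Adamts10 the lh change did not pass. That does not show that it is absent, and its part in these differences was not tested.

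Against tg cerebellum 11 probe sets passed (0.0407%), 6 higher and 5 lower. Mtrex differed by 4.14 (0.11 in lh, -4.04 in tg), on signals near the floor in lh (6.38 and 6.03). Fam199x differed by -2.16 and is the 1 gene of these whose lh change passed. The others were 4833420G17Rik at -2.09, the splicing factor Sfpq at 1.14, the phosphatase Ptp4a2 at 1.31 and Nxpe4 at -2.13. Without lh-/- replicate 1 the count was 0, and without lh-/- replicate 3, lh+/+ replicate 2 and lh+/+ replicate 3 it was 4, 2 and 2.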

How the results depend on the processing

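The 42 calls in lh cerebellum became 6 with the 6 lh cerebellum arrays alone, 91 with all 36 arrays (57 higher), 137 with a block for line and run of records (47 higher), and 16 to 36 without 1 array. They became 21 (11 higher) without both lh-/- replicate 1 and lh+/+ replicate 3, chosen after seeing the data as the array that correlated least and the one with pituitary signal. Quantile normalization gave 43, a constant of 1 gave 41, a constant of 16 gave 36, leaving out the filter 29, filtering at the 60th percentile 54, array weights 53 and no trend 29 (14 higher against 15 of 42). A replicate block gave 211 calls (84 higher), 37 list members and 3 near Cacnb4. The labels do not pair the numbers, and 1 same-number correlation (0.225, 0.0948 and 0.333) lay under 0.1, although each array correlated best with its own number.

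Cacnb4 was at -0.84 (adjusted p = 0.0811) with the 6 arrays alone and at -0.80 (adjusted p = 0.0655) without both arrays, and it passed under the other settings (-0.97 to -0.75 without 1 array). The 12 called list members became 6 without trend, 1 with the 6 arrays, 19 with 36 arrays, 29 with the records block, 6 without both arrays and 5 to 9 without 1 array. The 1 called gene near Cacnb4 became 0 without trend, 2 with 36 arrays, 2 with the records block and 0 to 1 without 1 array. The effect differed from stg for 32 probe sets, 19 without trend and 19 to 35 without 1 array, from tg for 11, 0 without trend and 0 to 16 without 1 array, and from forebrain for 3 and 1 to 7. The cause of these moves was not tested, beyond the fewer arrays in some. In the replicate block the other Cacnb4 probe sets passed (adjusted p = 0.00188 and 0.00989). The log2 changes of the 39 named probe sets kept their sign in all settings run. The medians of 7 of the 27 lists did not, in 15 of 486 values, each for a list whose reported median was at most 0.132 from 0, and 51 of the 486 moved by more than the replicate spread. Neuropeptides went to -0.06 with the 60th percentile filter, pore subunits down to -0.11 and the clock list down to -0.08 without 1 array.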

Other observations

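Besides Cacnb4, 2 of the probe sets called in lh cerebellum had a change of similar size in lh forebrain without passing there. Fam199x was at -2.08 in cerebellum and -2.07 in forebrain (limma adjusted p = 0.0796), and 1 unnamed probe set at -0.93 and -0.98 (adjusted p = 0.0697). Samhd1, a nucleotide hydrolase, was the 1 gene other than Cacnb4 that passed in lh forebrain, higher in lh-/- (adjusted p = 0.0336), at 61.1 ± 18.6 against 3.77 ± 0.867 (SD, n = 3). Since 2.98 was added to every signal and the lower level is hardly above that, no log2 size is given. Another unnamed probe set fell in lh cerebellum by 1.02 and in stg cerebellum by 2.09, and was at -0.58 in tg cerebellum without passing.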
